A study of Mus musculus with 24 samples.

Results

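The region described here is the stretch of mouse chromosome 17 that lies within 2 Mb of the wild-type Oct4 viewpoint towards lower coordinates. It was taken as the HindIII fragments of the deposited mm9 fragment list whose starts lie between 33633988 and 35627531. This gave 418 fragments of the 25150 on the chromosome, the first starting at 33640056 and the last ending at 35627525. Contacts were measured by paired-end 4C sequencing, which counts the fragments ligated to 1 chosen fragment, the viewpoint, after crosslinking and digestion with HindIII. The viewpoint fragment runs from 35633988 to 35641095. It and its direct neighbours, 35627532 to 35633981 and 35641102 to 35643148, were left out of all shares. A share below is the percent of a library's counts on chromosome 17 outside these 3 fragments.

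The wild-type Oct4 viewpoint accounts for 8 of the 24 libraries of the series. They come from mouse embryonic stem cells of 2 lines, genotype OCF2ΔOCT4/SOX2 (here the OctSox line) and genotype OCF2ΔYY1 (the YY1 line), both at passage 7 and of strain C57Bl/6 x 129/Sv. Each was assayed at day 0 and day 3 with 2 biological replicates, which gave 4 groups. Per the series title the days span the beginning of differentiation; what was done to the cells between them is not named in the labels. The wild-type allele was read only in cells of these 2 genotypes, and no line without them was analysed here for this viewpoint. The days and lines are the comparisons of the design, and the mirrored stretch towards higher coordinates, with 445 fragments, served as the reference within each library.

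Pou5f1 encodes Oct4, a transcription factor that keeps embryonic stem cells pluripotent. Pou5f1 lies within the major histocompatibility complex, a gene-dense stretch that holds class I and class II antigen-presenting molecules and the class III genes of complement and inflammation. In the mouse, class I genes lie on both sides of Pou5f1, so the mirrored stretch is no reference free of this complex. Of the 9 class I genes listed here 8 lie on the lower side. The remaining one, H2-L, was not found between H2-K1 and Pou5f1, and its side was not determined. The count therefore does not give the split of class I genes between the sides. In 4C, contact counts usually fall off steeply with distance from the viewpoint. In the RefSeq order of protein-coding genes on GRCm38, 89 genes lie between Pou5f1 and H2-K1, counting H2-K1, on the side of the lower coordinates. The class I genes H2-Q10, H2-Q7, H2-Q6, H2-Q4, H2-Q2 and H2-Q1 are neighbours 1 to 6 of Pou5f1, and H2-D1 is neighbour 7. Class III genes follow from neighbour 8, Ddx39b, an RNA helicase, and include Tnf and Lta, cytokines of inflammation. The genes listed here as class II lie at neighbours 71 to 83. Because the fragment list is in mm9 and the gene order in GRCm38, no gene was assigned to a fragment.

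The H2-Q genes next to Pou5f1 are close relatives in sequence. Of the 89 genes, 73 had a RefSeq promoter sequence of 300 bases. Among them, 6 of 7 class I promoters had another promoter of the set that was at least 80% identical over at least 200 aligned bases, the exception being H2-Q2. Of the 66 other promoters, 4 had such a match, those of the heat shock genes Hspa1a and Hspa1b and of the butyrophilin-like genes Btnl6 and Btnl4. The closest H2-Q pair, H2-Q7 and H2-Q6, matched at 254 of 261 aligned bases (97.3%). These 2 promoters are shown to make that likeness visible. They lie at chr17:35438905-35439204 and chr17:35424600-35424899 on the plus strand of GRCm38.p6 (RefSeq), and capitals mark the bases that differ within the aligned stretch, 1 of them an inserted base.
H2-Q7: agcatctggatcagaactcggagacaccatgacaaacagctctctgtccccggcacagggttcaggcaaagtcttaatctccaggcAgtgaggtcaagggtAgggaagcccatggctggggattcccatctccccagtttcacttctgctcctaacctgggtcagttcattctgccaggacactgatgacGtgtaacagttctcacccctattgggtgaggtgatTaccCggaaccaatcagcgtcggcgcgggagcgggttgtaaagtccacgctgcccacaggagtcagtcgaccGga
H2-Q6: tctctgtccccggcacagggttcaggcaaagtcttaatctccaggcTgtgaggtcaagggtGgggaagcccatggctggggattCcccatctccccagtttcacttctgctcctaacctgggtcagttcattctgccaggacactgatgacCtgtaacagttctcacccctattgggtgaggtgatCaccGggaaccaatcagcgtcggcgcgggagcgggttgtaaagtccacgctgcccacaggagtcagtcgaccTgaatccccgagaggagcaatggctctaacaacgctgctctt
Neither sequence holds a HindIII site.

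Depth varied widely between the 8 libraries. Counts on chromosome 17 ranged from 16297 to 406507, and those outside the viewpoint and its neighbours from 7090 to 333751. In OctSox libraries these 3 fragments took 72.5% and 8.72% of the counts on day 0, then 35.2% and 57.8% on day 3. In YY1 libraries they took 2.38% and 2.61%, then 24.5% and 56.5%, so the days did not overlap there. The bearing of this difference on the comparisons of days was not tested. The shallowest libraries outside the viewpoint were YY1 day 3 replicate 2 (7090 counts) and OctSox day 3 replicate 2 (7976 counts), and the main comparisons of days below are also given without them. The lower side held between 573 and 49019 counts per library. With 7090 counts a fragment at 0 may still hold a share of up to 0.0423%, against 0.000899% with 333751 counts. Such limits, set at 3 counts, and the confidence intervals below cover counting error only, since PCR duplicates were not told apart.

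Contact on the lower side was low within 100 kb of the viewpoint, where 18 of the 24 fragments had no count in any library. It was highest between 200 and 500 kb away, and exceeded that of the higher side in both bands of distance beyond 500 kb. Per fragment, the mean share over the 8 libraries was 0.00411% within 100 kb, close to the 0.0043% between 1900 and 2000 kb. Between 100 and 200 kb it was 0.0283%. It was 0.11% between 200 and 300 kb, 0.117% between 300 and 400 kb and 0.0859% between 400 and 500 kb. From there it declined to 0.0564% and 0.053% in the next 2 bins of 100 kb, and the bins between 700 kb and 2 Mb held 0.0043% to 0.0298%. On the higher side the same measure started at 0.973% within 100 kb and was 0.00355% between 500 and 600 kb. In 1 of the 5 bins within 500 kb the lower mean was above that of the mirrored bin, that from 400 to 500 kb (0.0859% against 0.0671%). Beyond 500 kb it was above in 12 of the 15 bins. The 3 exceptions were 700 to 800 kb (0.00916% against 0.0265%), 1500 to 1600 kb (0.018% against 0.0254%) and 1700 to 1800 kb (0.00487% against 0.00579%).

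**Figure D1:**
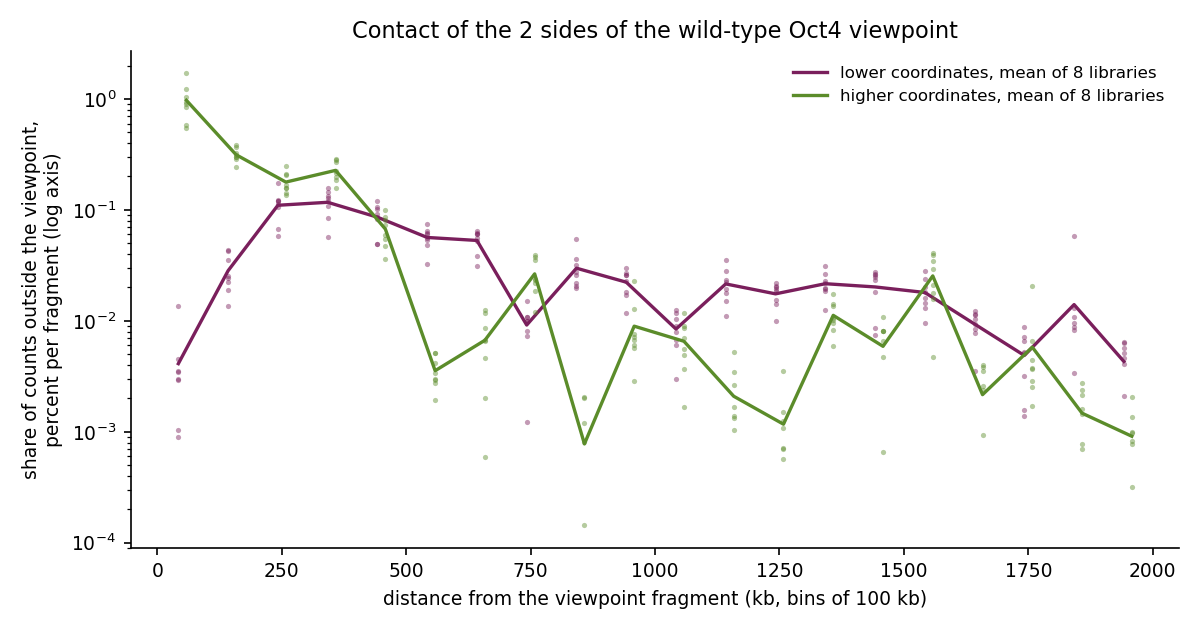
Share of counts per fragment (percent, log axis) in bins of 100 kb against distance from the viewpoint (kb), for the lower and the higher side; points are the 8 libraries and lines their means, and library values of 0 are not drawn. The lower side starts at 0.00411% per fragment, reaches 0.117% between 300 and 400 kb and lies above the higher side in 12 of the 15 bins beyond 500 kb.

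The sides were compared within each library in 6 bands of distance, by an exact two-sided sign-flip permutation test of the difference in percent per fragment over the 8 libraries. In this exact test all 6 bands gave p = 0.00781, the smallest value that 256 arrangements allow, and p = 0.00781 after adjustment over the 6 bands. The lower side was chosen as the weakly contacted one, so the test gives no independent support in bands where it lay below. The direction turned with distance. Within 50 kb the lower side held 461 counts over all libraries on 11 fragments and the higher side 146424 on 12, a 291-fold difference per fragment. Of the 461 counts 306 came from OctSox day 0 replicate 1, and without it the pooled counts were 155 and 106409, a 629-fold difference. Between 50 and 100 kb the pooled counts were 456 and 31097, a 73.9-fold difference. In both bands the lower side was below the higher one in 8 of 8 libraries.

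Between 100 and 250 kb the lower side held 1.37% ± 0.38 (SD, n = 8) of the counts and the higher side 8.64% ± 1.1. The log2 ratio per fragment was -2.86 ± 0.47 and ranged from -3.81 to -2.41. Between 250 and 500 kb the shares were 5.69% ± 1.78 and 8.22% ± 1.48, with a log2 ratio of -0.58 ± 0.37. With each fragment scored only as detected or not, the log2 ratio was -0.03 and the test of this band no longer passed (p = 0.555, exact sign-flip permutation, n = 8).

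Beyond 500 kb the order of the sides was the opposite in every library. Between 500 kb and 1 Mb the lower side held 2.95% ± 0.605 and the higher side 1.16% ± 0.353. By library the log2 ratio per fragment was 2.23 and 1.89 for OctSox cells on day 0, and 2.18 and 1.35 on day 3. For YY1 cells it was 1.86 and 1.79, then 2.80 and 0.92, so all 8 values lay above 0 and the shallowest library had the lowest. The mean was 1.88 ± 0.57, a 3.67-fold difference. Between 1 and 2 Mb the shares were 2.93% ± 0.883 and 1.35% ± 0.467, and the log2 ratio was 1.12 ± 0.49, a 2.17-fold difference. Both bands kept their direction in 8 of 8 libraries when fragments were scored as detected or not, when the most contacted fragment of each side was dropped, when fragments without any count were dropped, and per kb of fragment. These alternatives were chosen after seeing the data.

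**Figure D2:**
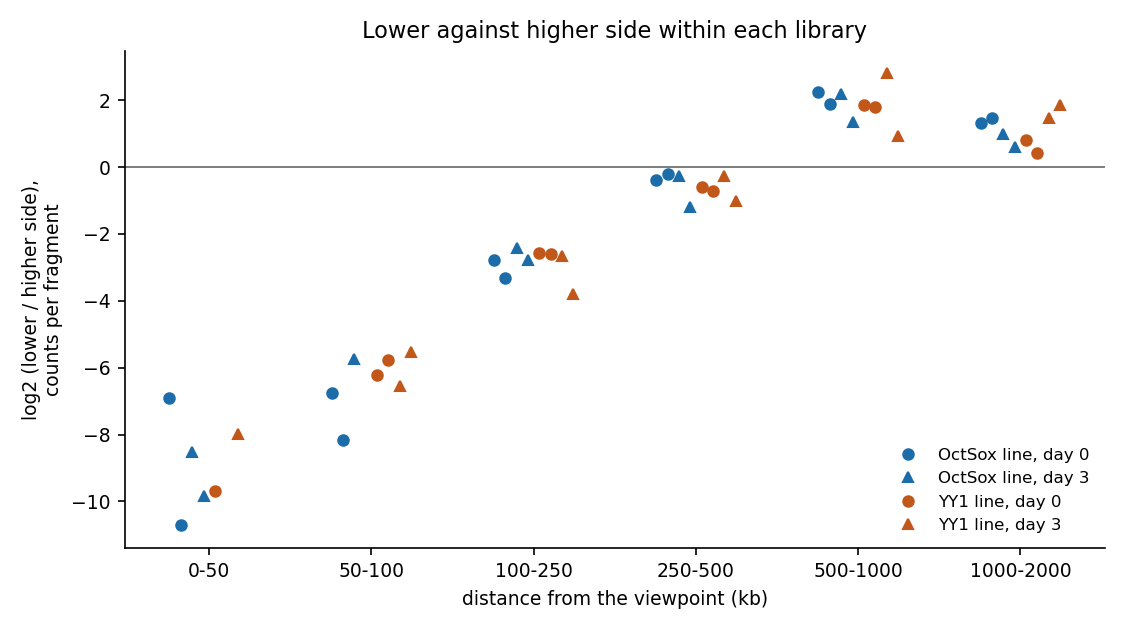
Log2 ratio of the lower to the higher side, counts per fragment, in 6 bands of distance from the viewpoint (kb); each point is 1 library, circles day 0 and triangles day 3, and the line marks equal contact. Libraries with 0 counts on the lower side are not drawn, which leaves out 2 within 50 kb and 1 between 50 and 100 kb; all values within 500 kb lie below 0 and all values beyond it above 0.

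The slope of contact on distance also differed in sign between the sides. Fitted as log10 of the mean count per fragment on log10 of distance in 8 bins from 20 kb to 2 Mb, the slope of the lower side was positive in all libraries, from 0.352 to 1.12. On the higher side it ran from -1.43 to -1.09. Bins without counts were left out of each fit, but empty fragments in the other bins entered the means as 0. Within 150 kb, 25 of the 40 lower fragments had no count in any library. Of the lower fragments within 50 kb only that at 6.46 kb had counts, so the nearest lower bin was never fitted. The slopes of the sides therefore do not cover the same distances. The difference was 1.84 ± 0.213 (SD, n = 8; p = 0.00781, exact sign-flip permutation, the smallest possible). Over the full 2 Mb the lower side was below the higher one by -1.64 ± 0.565 on the log2 scale (p = 0.00781, exact sign-flip permutation, n = 8). That the lower side is the weaker one in total was known before these tests. Its low counts near the viewpoint enter both values, so the tests give no independent support to the slope difference or this total. Scored as detected or not, the sign of this total turned, to a log2 ratio of 0.181 (p = 0.0234, exact sign-flip permutation, n = 8): more of the lower fragments were detected, with fewer counts each.

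Of the 418 fragments, 73 (17.5%) had no count in any library, against 116 of 445 (26.1%) on the higher side, but the positions of the empty fragments differed. Within 100 kb of the viewpoint 18 of the 24 lower fragments were empty and 0 of the 24 higher ones. Within 150 kb the counts were 25 of 40 and 0 of 38. The longest empty run on the lower side held 10 consecutive fragments, from 35583177 to 35619814 (36.6 kb), and began 14.2 kb from the viewpoint. The 2 empty fragments nearest to the viewpoint, 35618856 to 35619814 and 35617636 to 35618849, had 0 counts in all 8 libraries. Empty fragments had a median length of 3352 bp against 3523 bp for those with counts. Across the 418 fragments, length and mean share had a Spearman correlation of 0.11, over fragments that share the same libraries.

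Within 50 kb only the nearest fragment, 35619821 to 35627525, 6.46 kb from the viewpoint, had any count. It held 306 and 1 counts on day 0 of the OctSox line and 69 and 2 on day 3. The YY1 libraries held 64 and 0 on day 0, then 19 and 0 on day 3. The library that gave 306 of its 461 counts, OctSox day 0 replicate 1, also had the largest share of counts at the viewpoint and its neighbours (72.5%). Its line difference, among the 3 smallest p of the lower side, was -2.32 ± 1.47 (log2, YY1 over OctSox, ± SE; edgeR adjusted p = 0.998) and 0.05 without that library.

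The spacing of cut sites near the viewpoint repeats. The 7 consecutive fragments from 35528334 to 35558948 have lengths that recur, within 2%, in the 7 fragments from 35573383 to 35604166, 12 fragments further on. Of these 14 fragments 12 had no count in any library. On the higher side the longest such recurrence was 2 fragments. The search for repeated lengths was chosen after the empty fragments were seen, and the deposited files do not state whether reads with several matches were kept. The part that repeated sequence plays in the low counts within 150 kb was not tested, and the contact values there are those of the fragments as counted.

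The most contacted fragments of the lower side were clustered and distant. The 10 with the highest mean share lay 157 to 442 kb from the viewpoint, between 35186920 and 35476536, a span that holds 62 fragments of the region. Their mean shares summed to 3.35% of the counts, and 9 of the 10 were detected in all 8 libraries. The 10 most counted fragments of each library held 25.1% to 37.9% of its lower-side counts.

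The highest mean share, 0.564% ± 0.257 (SD, n = 8), was that of the fragment 35321662 to 35337937, 296 kb away and 16276 bp long. In OctSox cells its shares were 0.967% and 0.919% on day 0, then 0.658% and 0.313% on day 3. In YY1 cells they were 0.425% and 0.418%, then 0.33% and 0.48%. The OctSox day 0 libraries were the highest, and the other 3 groups overlapped. Among all fragments of the chromosome outside the viewpoint it had rank 19.

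The second, 35257614 to 35262627 (371 kb), had a mean share of 0.471% ± 0.156. OctSox cells gave 0.456% and 0.591% on day 0, then 0.645% and 0.577% on day 3. YY1 cells gave 0.483% and 0.476%, then 0.402% and 0.141%. The shallow YY1 day 3 library was the lowest, and the other 7 lay between 0.402% and 0.645%. The third, 35383407 to 35389286 (245 kb), was the steadiest of the 10 at day 0. Its day 0 shares were 0.4% and 0.403% (OctSox) and 0.425% and 0.413% (YY1). On day 3 they were 0.435% and 0.426% (OctSox) and 0.317% and 0.226% (YY1), so the YY1 day 3 libraries lay below the others.

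Other members of the 10 varied much more between replicates. The fragment 35371615 to 35374296 (260 kb) took 0.12% and 1.02% on day 0 and 0.155% and 0.15% on day 3 of the OctSox line. For YY1 cells the pairs were 0.141% and 0.0574%, then 0.569% and 0.212%. Its mean of 0.302% rests largely on OctSox day 0 replicate 2 and was 0.201% without it. Its immediate neighbour 35370033 to 35371608 (262 kb) took 0.118% and 0.478% on day 0 and 0.303% and 0.113% on day 3 of the OctSox line. For YY1 cells the pairs were 0.433% and 0.536%, then 0.237% and 0.0564%. These adjacent fragments thus differed in which libraries were high. The fragment 35192342 to 35195084 (439 kb) was the one of the 10 with a library at 0. Its shares, day 0 before day 3, were 0.163%, 0.511%, 0.595% and 0.15% for OctSox cells. For YY1 cells they were 0.619%, 0.492%, 0.268% and 0.

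The remaining 4 had mean shares between 0.201% and 0.328%. These were 35309286 to 35321655 (312 kb; 0.328% ± 0.0795), 35307278 to 35309279 (325 kb; 0.266% ± 0.108), 35186920 to 35192335 (442 kb; 0.207% ± 0.0699) and 35475853 to 35476536 (157 kb; 0.201% ± 0.0922). Over both lines the days overlapped in all 4. Within a line, 35307278 did not overlap in YY1 cells (0.378% and 0.34% on day 0, 0.19% and 0.212% on day 3), nor 35186920 in OctSox cells (0.284% and 0.29%, then 0.183% and 0.15%). In 35475853 the days did not overlap in either line and ran in opposite directions: 0.106% and 0.14%, then 0.203% and 0.251% for OctSox cells, and 0.282% and 0.344%, then 0.216% and 0.0705% for YY1 cells. With 2 libraries per day in a line, such separation is easily met. Its rate over all fragments was not computed, so here and below it only describes the named fragments and bins. At the other end, the 3 fragments farthest from the viewpoint were nearly empty: 33640056 to 33646803 had 1 count over all libraries, and 33647379 to 33652893 had at most 24 in a library. The fragment 33652900 to 33655436 had counts only in YY1 libraries, 18 and 15 on day 0 and 4 and 0 on day 3.

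**Figure D3:**
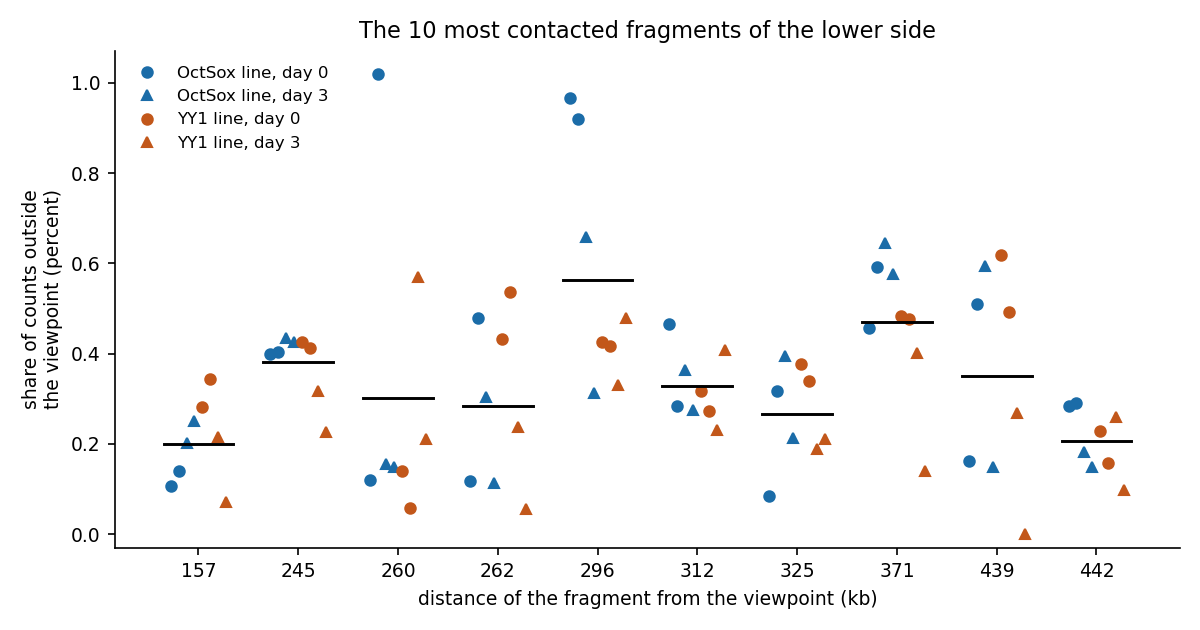
Share of counts outside the viewpoint (percent) of the 10 most contacted fragments of the lower side, ordered by their distance from the viewpoint (kb); points are libraries, circles day 0 and triangles day 3, and black lines the means of 8 libraries. Means run from 0.201% at 157 kb to 0.564% at 296 kb, and the fragment at 260 kb has 1 library at 1.02%.

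In bins of 100 kb the shape of the profile along the lower side was alike in all libraries. Over its 20 bins of 100 kb, the Spearman correlation between pairs of libraries had a median of 0.88 and ranged from 0.70 to 0.97 in 28 pairs. The 4 pairs of the same group ranged from 0.70 to 0.97 as well. At the level of the 418 fragments the median was 0.69 and the range 0.41 to 0.90. Pairs of the same group (median 0.62) were no more alike there than pairs of different groups (0.73). These correlations run over bins or fragments of shared position and are descriptions.

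The days were compared first by the share of the whole side. In OctSox cells the day 0 shares were 12.8% (95% Wilson interval 12.6-13%) and 18.4% (17.8-18.9%), and the day 3 shares 14.6% (14.4-14.8%) and 8.74% (8.14-9.38%). YY1 cells had 14.7% (14.6-14.8%) and 13.3% (13-13.5%) on day 0. Their day 3 shares were 13.7% (13.4-14%) and 8.08% (7.47-8.74%). The lowest values were those of the 2 shallow day 3 libraries, and the days overlapped. The means were 14.8% ± 2.53 at day 0 and 11.3% ± 3.34 at day 3 (SD, n = 4 each), a difference of -3.51 points that did not pass an exact permutation test of the day labels within lines (p = 0.278; the smallest p possible with 36 arrangements is 0.0556). Without the shallow libraries the difference was -0.637 points. As a percent of the counts of both sides, the lower side held 15.6% to 33.2%, and the day difference was -1.93 points (p = 0.833, exact permutation, n = 4 per day). This second difference was 5.08 points without both shallow libraries, and it was also above 0 without OctSox day 0 replicate 2 (1.9 points), OctSox day 3 replicate 2 (1.04) or YY1 day 3 replicate 2 (2.11).

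**Figure D4:**
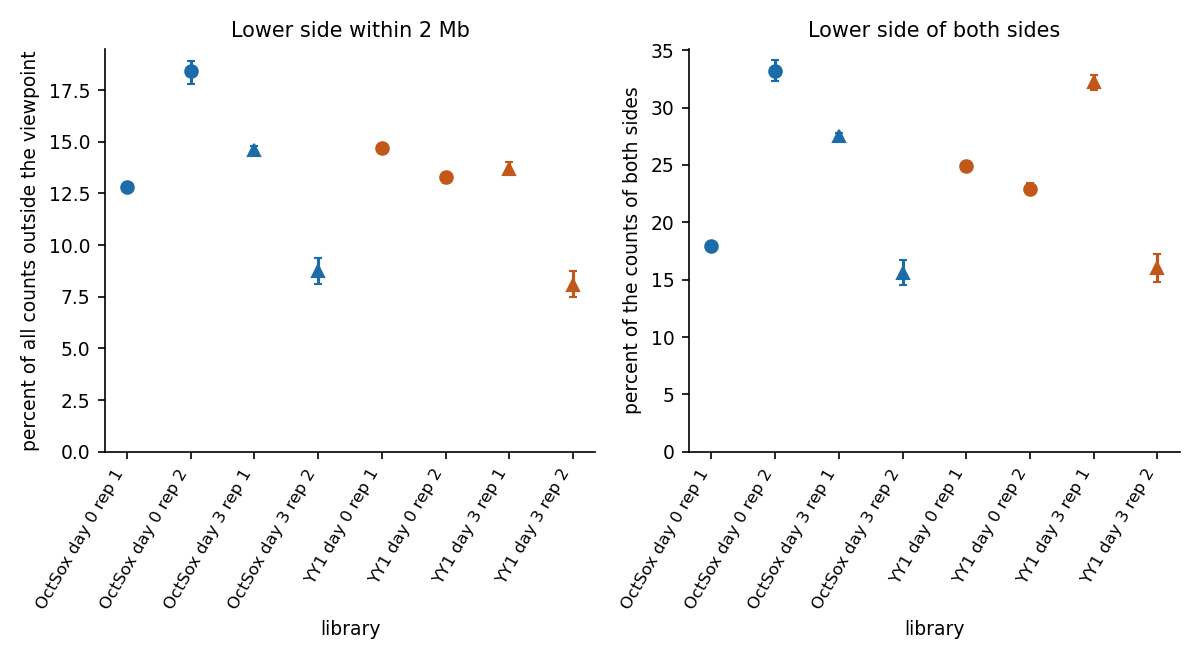
Lower-side counts within 2 Mb in each library as a percent of all counts outside the viewpoint (left) and of the counts of both sides (right); bars are 95% Wilson intervals, circles day 0 and triangles day 3, blue the OctSox line and orange the YY1 line. The shares run from 8.08% to 18.4% on the left and from 15.6% to 33.2% on the right, and the day 3 replicate 2 libraries are lowest in both.

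With 36 arrangements no band could pass a threshold of 0.05 in the comparison of days, so the bands are given by their values. Between 250 and 500 kb the lower side held 6.71% ± 1.27 at day 0 and 4.68% ± 1.74 at day 3 (SD, n = 4 each; exact permutation, p = 0.222, adjusted over the 6 bands 0.667), a difference of -2.03 points, and of -0.542 without both shallow libraries. Adjusted p over the other bands ranged from 0.667 to 0.944. With every library reduced to 7090 counts, 21.1% to 48% of the fragments were expected to have at least 1 count, and day 3 lay below day 0 by -7.92 points (p = 0.444, exact permutation, n = 4 per day). The shallow libraries had the lowest values here too, 21.9% and 21.1%. With 1 library left out the difference ran from -14.6 points (without YY1 day 3 replicate 1) to -1.29 (without YY1 day 3 replicate 2), with -13.8 and -2.07 points without OctSox day 3 replicates 1 and 2. Without both shallow libraries, an alternative chosen after seeing the data, it was 4.56 points, so its sign rests on these 2 libraries.

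Counts summed in 100 kb bins were then tested with edgeR's quasi-likelihood test across the chromosome, with line as a covariate. Of 764 bins 0.131% passed an adjusted p of 0.05, and of the 20 lower-side bins 0 passed. An unadjusted p under 0.05 was met by 4 of the 20, and by 40 of all 764 bins. DESeq2 likewise passed 0 of the 20, and edgeR passed 1 without YY1 day 3 replicate 1 (0.242% of 826 bins). All the same, the fitted change was on 1 side: 20 of 20 bins had a log2 fold change of day 3 over day 0 below 0, with a median of -0.74 and a range of -1.83 to -0.01. Over all 764 bins 52.2% lay below 0 and the median was -0.06. By mean share, mirrored bins within 500 kb were also lower at day 3 than at day 0. From near to far they held 24.7% then 22%, 6.6% then 5.97%, 5.13% then 3.78%, 5.35% then 4.19%, and 1.57% then 1.12%. Beyond 500 kb mirrored bins went both ways, such as 0.207% then 0.0731% (600 to 700 kb) and 0.62% then 0.703% (700 to 800 kb). A decline is thus not shown to be particular to the lower side. Scaled by total counts instead of by edgeR's trimmed means, the median of all bins moved to 0.34 and that of the lower side to -0.33, with 19 of 20 below 0. Without both shallow libraries the lower-side median was -0.37 against 0.05 over all bins, again with 20 of 20 below 0. The bins share libraries and their scaling, so their common sign is a description of these 8 libraries.

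**Figure D5:**
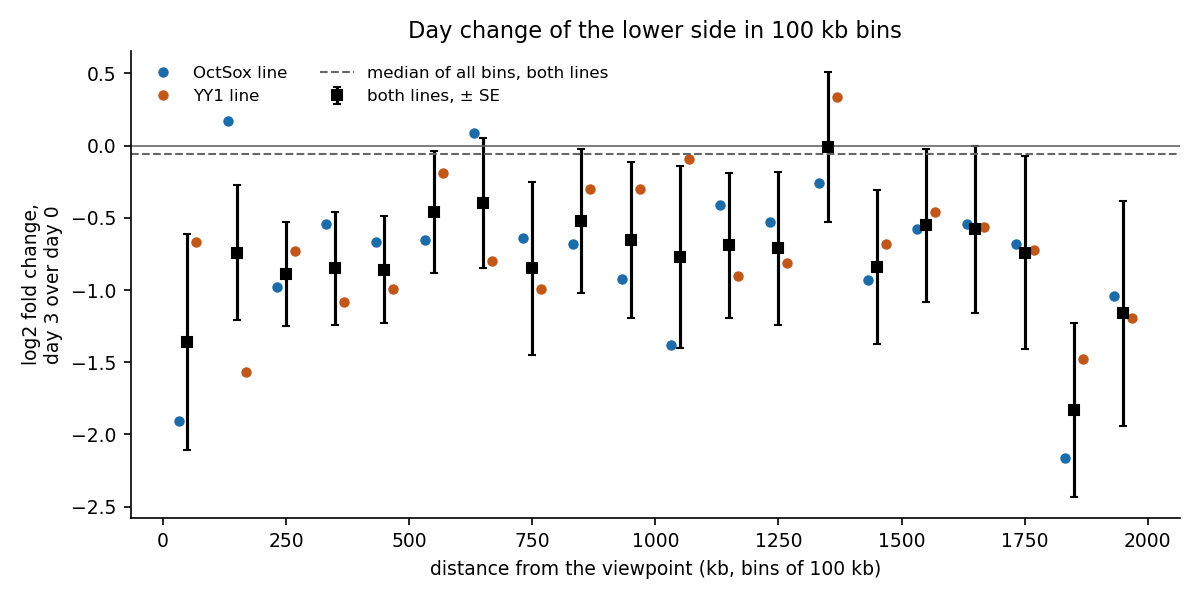
Log2 fold change of day 3 over day 0 in the 20 bins of 100 kb of the lower side, against distance from the viewpoint (kb); squares are the edgeR estimates over both lines with their SE, coloured points those of each line, and the dashed line is the median of all 764 bins. All 20 squares lie below 0, the lowest at -1.83 in the bin from 1800 to 1900 kb, and 0 of the 20 passed an adjusted p of 0.05.

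The bin with the smallest p, from 33732013 to 33828368 (1800 to 1900 kb away), had a log2 fold change of -1.83 ± 0.60 (SE; edgeR adjusted p = 0.597). OctSox libraries gave it 0.216% and 1.52% on day 0, then 0.282% and 0.0878% on day 3. YY1 libraries gave it 0.342% and 0.23%, then 0.247% and 0. The value of 1.52% came mainly from 1 fragment, 33796757 to 33802797, named after its values were seen. This fragment had 233 counts in OctSox day 0 replicate 2 (1.25%), 11 in OctSox day 3 replicate 1, and at most 4 in any of the other libraries. The 3 most contacted bins had log2 changes of -0.89 ± 0.36 (200 to 300 kb, edgeR adjusted p = 0.827), -0.85 ± 0.39 (300 to 400 kb, edgeR adjusted p = 0.914) and -0.86 ± 0.37 (400 to 500 kb, edgeR adjusted p = 0.914).

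Within the lines most bins lay below 0 as well. In the OctSox line 18 of 20 bins lay below 0 with a median of -0.66 (-0.06 over all 627 bins, of which 0.159% were called), and 0 of the 20 passed. An unadjusted p under 0.05 was met by 1 of the 20 by edgeR (13 of all 627) and 1 by DESeq2 (21 of 627). The OctSox median was -1.40 (-0.72 over all bins) without OctSox day 3 replicate 1. Scaled by total counts it was -0.39 with 17 of 20 below 0 (0.24 over all bins). In the YY1 line 19 of 20 lay below 0 with a median of -0.73 (-0.18 over all 635 bins, of which 0% were called), and 0 passed. An unadjusted p under 0.05 was met by 3 of the 20 by edgeR (23 of all 635) and 0 by DESeq2 (34 of 635). Scaled by total counts the YY1 median was -0.30 with 15 of 20 below 0, against 0.24 over all bins. It was -0.40 against 0.00 without YY1 day 3 replicate 2, and -1.24 against -1.48 without YY1 day 3 replicate 1, so the order of the lower side and all bins turned there. The smallest p in the YY1 line belonged to the bin 35431623 to 35528327 (100 to 200 kb), at -1.57 ± 0.48 (edgeR adjusted p = 0.983). Its shares there were 1.27% and 1.23% on day 0, then 0.73% and 0.395% on day 3, so the days did not overlap. OctSox cells gave the same bin 0.649% and 0.553%, then 1.03% and 0.702%, which did not overlap in the other direction. The difference in day change between the lines was -1.68 ± 0.97 (edgeR interaction term, adjusted p = 0.999), and over all 764 bins 0% passed that test. The absence of calls in the YY1 line depends on its day 3 libraries: with YY1 day 3 replicate 1 left out 10 of the 20 bins were called lower at day 3 (25.6% of 716 bins were called in either direction), and with YY1 day 3 replicate 2 left out 4 were (1.78% of 787), the remaining day 3 library being assumed to vary like the day 0 pair.

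Single fragments were tested in the same way, with a minimum count of 10 set by edgeR's filter. In the OctSox line 145 of the 418 members were tested and 0 passed (0% of all 731 fragments). An unadjusted p under 0.05 was met by 0 members by edgeR (17 of all 731) and 2 by DESeq2 (31 of 731). In the YY1 line 155 were tested and 0 passed (0.279% of all 716), with 9 at an unadjusted p under 0.05 (61 of all 716). Over both lines 186 were tested and 0 passed (0% of all 1270), with 3 at an unadjusted p under 0.05 (59 of all 1270). DESeq2 passed 0 members in all 3 comparisons. Of the 186 members 147 had a fold change below 0, with a median of -0.53 against -0.31 over all fragments tested. DESeq2 gave 102 of 186 below 0 and a median of -0.11 against 0.14. Without both shallow libraries 117 of 245 lay below 0, with a median of 0.05 against 0.37, so the sign of the median depends on these libraries. The YY1 count again depended on the libraries kept: it was 28, all lower at day 3, without YY1 day 3 replicate 1 (7.5% of 1493 fragments were called), and 2, in opposite directions, without YY1 day 3 replicate 2 (0.709% of 1833). In the OctSox line it was 1 without OctSox day 0 replicate 1 (0.395% of 506).

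The members with the smallest p did not all go the same way. In the YY1 line 35192342 to 35195084 had a log2 fold change of -1.95 ± 0.69 (edgeR adjusted p = 0.225) and 35370033 to 35371608 one of -1.72 ± 0.72 (edgeR adjusted p = 0.383). The third, 33809696 to 33810569 (1823 kb), had 188 and 36 counts at day 0 and 0 and 0 at day 3 (edgeR adjusted p = 0.383). In the OctSox line 35213515 to 35216602 (417 kb) had 0 and 5 counts at day 0 and 127 and 20 at day 3 (log2 3.77 ± 2.08). The other 2 of the OctSox line were 34566531 to 34571582 (1062 kb; log2 -4.41 ± 2.89) and 35371615 to 35374296 (log2 -1.81 ± 1.26), and all 3 had an edgeR adjusted p of 1. Over both lines the smallest p were those of 35213515 (3.03 ± 1.44), 35044126 to 35045694 (588 kb; -2.02 ± 1.01) and 35201060 to 35201445 (433 kb; -2.54 ± 1.28), each with an edgeR adjusted p of 0.997. All 3, the rising one included, sit at 0 counts in YY1 day 3 replicate 2, a library in which 88 of the 418 members have a count.

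The difference between the lines was smaller than the spread between libraries. The lower side's mean share was 13.6% ± 4.01 for OctSox and 12.4% ± 2.96 for YY1 cells (SD, n = 4 each), a difference of -1.2 points (exact permutation of line labels within days, p = 0.611). Its sign turned without OctSox day 0 replicate 2 (0.197), OctSox day 3 replicate 1 (0.267) or YY1 day 3 replicate 2 (0.207). As a percent of both sides it was 0.438 points higher in the YY1 line (exact permutation, p = 0.944, n = 4 per line). That sign turned without OctSox day 0 replicate 1 (-3.39), OctSox day 3 replicate 2 (-2.54), YY1 day 0 replicate 1 (-0.0499) or YY1 day 3 replicate 1 (-3.61). Of 186 members 0 were called between the lines (0% of all 1270), as were 0 of the 20 bins (0% of 764), and DESeq2 called 0. By edgeR 0 members had an unadjusted p under 0.05 in either test, against 62 of all 1270 fragments and 21 of all 764 bins. Without both shallow libraries 1 member was called, 33796757 to 33802797 (0.0278% of 3595 fragments were). In OctSox libraries it had 0 and 233 counts on day 0, then 11 and 0 on day 3. YY1 libraries gave it 4 and 0, then 1 and 0. Its difference thus rests mainly on OctSox day 0 replicate 2, and with all 8 libraries its counts were too low to be tested. The median log2 change of the bins, YY1 over OctSox, was -0.29, against 0.08 over all bins. The 2 members with the smallest p beside the nearest fragment were 35475455 to 35475846 (158 kb; 2.19 ± 1.26) and 34033074 to 34033895 (1600 kb; 2.93 ± 1.63), both with an edgeR adjusted p of 0.998. The first took, day 0 before day 3, 0.017%, 0.0161%, 0.118% and 0 in OctSox libraries and 0.257%, 0.318%, 0.0835% and 0.0987% in YY1 libraries, which overlapped. Of the 1270 fragments 0% passed the test of the line by day interaction, and 0 of 186 members did. An unadjusted p under 0.05 was met by 1 member and by 58 of the 1270.

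The authors' deposited table of day comparisons lists 141 fragments for the OctSox line and 136 for the YY1 line, identified only by a running number. They were placed here by matching their mean values to the count tables, after keeping fragments whose median count was 40 or more and leaving out the viewpoint. The correlation of log values was 0.994 and 0.977 under that placement, against at best 0.940 and 0.921 if a fragment of the lower side had been the one left out. The deposited fold change ran opposite to day 3 over day 0 in the counts (correlation -0.90 and -0.87), so its sign was turned here. Of the 141 OctSox fragments in the authors' deposited table, 55 were members, of which 0 had an adjusted p under 0.05 (0.709% of those listed did), the smallest being 0.983. For the YY1 line the authors' deposited table held 53 members, 38 with an adjusted p, of which 1 was under 0.05 (3.92% of the 102 listed with one).

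That fragment, named after its values were seen, was 35085339 to 35101626, 532 kb from the viewpoint, with a log2 change of 2.47 ± 0.67 and an adjusted p of 0.00753 in the authors' deposited table. YY1 libraries gave it 0.0482% and 0.0344% on day 0, then 0.278% and 0.296% on day 3. Here the shallow day 3 library went with the deeper one, and the days did not overlap. OctSox libraries gave it 0.144% and 0.22%, then 0.169% and 0.0502%, which overlapped. In the chromosome-wide edgeR test over 716 fragments its YY1 day change was 2.56 ± 1.11 with an adjusted p of 0.383. The authors' deposited table and the edgeR test thus gave near-equal fold changes and different calls over different sets of fragments. For the members as a whole, 36 of 55 and 32 of 53 lay below 0 in the authors' deposited table, with medians of -0.14 in the OctSox line and -0.22 in the YY1 line against -0.14 over all fragments listed for either line.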

How the data were processed

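For the 8 libraries of the wild-type Oct4 viewpoint the authors deposited an unnormalized count for every HindIII fragment of chromosome 17, and a fragment list in the same order. Bowtie and mm9 are named in the submitters' processing notes. Not given in the sources used here are the Bowtie version, how reads with several matches were treated and how reads were counted. The authors also deposited tables of their day comparisons with a mean normalized signal, log2 fold changes with standard errors, a test score, and p-values per fragment, per the file headers. These were placed by matching means, and only the log2 fold changes and p-values are printed.

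Shares used counts outside the viewpoint fragment and its direct neighbours. Groups came from the sample titles. Day and line labels were permuted exactly within strata, and sides were compared by exact sign flips over libraries. Fragments and 100 kb bins laid outward from the viewpoint were tested over all of chromosome 17 with edgeR 4.0.16 (quasi-likelihood test, trimmed-mean scaling, minimum count 10, Benjamini-Hochberg threshold 0.05) in R 4.3.3, with DESeq2 1.42.0 as an alternative. The edgeR and permutation steps were tested on simulated data. Promoters were aligned globally with Biopython 1.88, end gaps free. The other computing was done in Python 3.11.15 with scipy 1.17.1, and plots were drawn with matplotlib 3.10.9.

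Fragments were named as the 10 with the highest mean share, any called, the 3 with the smallest p in each day test and the line test, and the 3 nearest and farthest. Bins were named as the 5 with the highest share per fragment beyond 100 kb, any called, and the smallest p per test. The members and lists were chosen with earlier results of these data known. The alternatives were other scaling, other filters on low counts, bin sizes of 50 and 200 kb, other fragments left out at the viewpoint, a replicate block, DESeq2, and each library left out in turn.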

Additional observations from a re-analysis of the deposited data

How the results depend on the processing

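Of 529 recomputed values for 43 results, 494 were scored as unchanged, 22 turned sign, 10 newly passed, 1 no longer passed and 2 moved by more than the spread. For the fragment and bin tests the score covers only the number of members called, not the direction of change. The median day change of member fragments over both lines went from -0.53 to 0.05 without both shallow libraries. Their median line change went from -0.15 to 0.66 without OctSox day 3 replicate 1. The mean log2 ratios of the sides in the bands from 100 kb outward and the mean slope difference kept their sign in every alternative. Between 250 and 500 kb, with each fragment counted once, the lower side was nevertheless above the higher one in 5 of 8 libraries. With each fragment counted once as detected or not, the share difference between days was 1.13 points, the log2 ratio of the sides 0.181, and the log2 ratio between 250 and 500 kb -0.03. When the viewpoint fragments were kept in, the line difference was 1.65 points in the share and -3.03 points in the percent of both sides. Leaving out 3 neighbours gave 0.0729 points for the day and -0.925 points for the line in the percent of both sides. Without the most contacted fragment of each side these were 0.163 and -0.0865, and with fragments of 500 bp and over the line difference was -0.237. Without both shallow libraries the day difference was 5.08 points in the percent of both sides and 4.56 points in the percent of fragments detected. In the same setting 1 member was called between lines, 33796757 to 33802797, lower in the YY1 line (edgeR adjusted p = 0.00695, with 0.0278% of 3595 fragments called). This member had 233 counts in OctSox day 0 replicate 2 and 0 in OctSox day 0 replicate 1, so its difference rests mainly on 1 library. Apart from leaving out 1 library at a time, all alternatives for the bands were chosen after seeing the data. So was the setting without both shallow libraries for the fragments detected and for the fragment and bin tests. With at most 36 arrangements no day or line difference of shares could pass its test. The day difference in the share was below 0 in every alternative except with each fragment counted once; the line difference and both differences in the percent of both sides changed sign, and the cause was not tested.

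Leaving out 1 library at a time moved the share difference between days from -4.97 to -2.04 points and between lines from -2.66 to 0.267. The percent of both sides moved from -5.98 to 2.11 points for the day and from -3.61 to 4.48 for the line. Called members ranged from 0 to 28 for the YY1 day test of fragments (28 where 7.5% of all fragments tested were called), from 0 to 10 for its bins (10 where 25.6% of all bins tested were called), from 0 to 1 for the bins of both lines (1 without YY1 day 3 replicate 1) and from 0 to 1 for the OctSox fragments. The line change of the nearest fragment, 35619821 to 35627525, ranged from -4.10 to 0.05. Day changes of 3 named members in the YY1 line passed with a library left out: 33809696 without YY1 day 3 replicate 2, and 35192342 and 35370033 without YY1 day 3 replicate 1.

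Replicate numbers are not stated to mark a shared batch. With the replicate number as a block, members called were 0 in all 5 fragment tests and 0 in all 5 bin tests, and the day and line differences in shares had p = 0.375 and p = 0.625 (exact permutation within pairs). For the percent of both sides these were -1.93 points (exact permutation, p = 0.875) and 0.438 points (p = 0.875). Deviations of same-numbered libraries over the 20 bins had correlations of 0.29 and 0.57 between days within lines, and of -0.07 and 0.30 between lines within days. Of the 418 members, 42 had counts in all 8 libraries.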
